A study of Bos taurus with 2 samples.

Results

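Immediate early response genes are switched on within minutes of a stimulus, without new protein synthesis, and their transcripts are short-lived. Growth factor, hormone or stress signals pass through MAP kinases to transcription factors such as SRF, ELK1 and CREB1, which act on the promoters of these genes. Most of the products are themselves transcription factors. FOS and JUN proteins pair as the AP-1 dimer, while EGR1 and MYC bind DNA as factors of other families. A set of 10 such genes was chosen by symbol, and 9 of them, out of 24616 genes listed in each table, were described: FOS, FOSB, JUN, JUNB, EGR1, ATF3, MYC, IER2 and DUSP1. JUND, a further JUN protein, was not analysed here.

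The study set gene expression in the testis at an age of 9 months against that at 3 months, in cattle, with 1 RNA sequencing library per age. By their labels both libraries came from bovine seminiferous tubules, the tubes in which sperm cells form, which were flash frozen after removal of the testes. Markers of Leydig cells, which lie between the tubules, were also present, at levels that differed between the libraries (given below). The values are therefore not those of tubule cells alone. Neither breed, treatment nor the time between removal and freezing is given in the sources used here. Every value below sets 1 library beside another, with no replicates, and "at 9 months" and "at 3 months" are short for these libraries.

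In total 29782234 counts were deposited for the 9-month library, against 37600534 for the 3-month library. Levels are given as RPKM, reads per kilobase of gene length relative to all reads of the library, divided by the library's TMM factor, a scaling that assumes most genes do not differ. Such TMM-scaled RPKM values can be compared between genes, and between libraries only as far as that assumption holds. Folds are ratios of TMM-scaled counts, with a 95% exact counting interval in brackets that covers counting error only. Log2 ratios are of the 9-month to the 3-month library. A gene was called lower or higher when its ratio was past 2-fold and its interval left out 1, among 18025 genes with at least 10 counts over both libraries.

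All 9 immediate early genes were lower in the 9-month library, by 2.16-fold to 12.6-fold. Of all measured genes 22.8% were called lower and 28% higher. These shares are also the background for the counts given under TMM for each list below. The median log2 ratio was -1.64 over the 9 genes and 0.02 over all measured genes. At a limit of 4-fold, 4 of the 9 genes, FOS, MYC, JUN and ATF3, were lower, against 8.59% of all measured genes. The intervals of JUN [3.80 to 4.38] and ATF3 [2.87 to 5.89] reached below 4-fold. Together the 9 genes held 3906 counts at 9 months and 13476 at 3 months, a sum 3.74-fold lower [3.61 to 3.88]. All 9 passed the minimum of 10 counts, the scarcest having 41 counts at 9 months and 148 at 3 months, and none of them overlapped another annotated gene in assembly ARS-UCD2.0.

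**Figure D1:**
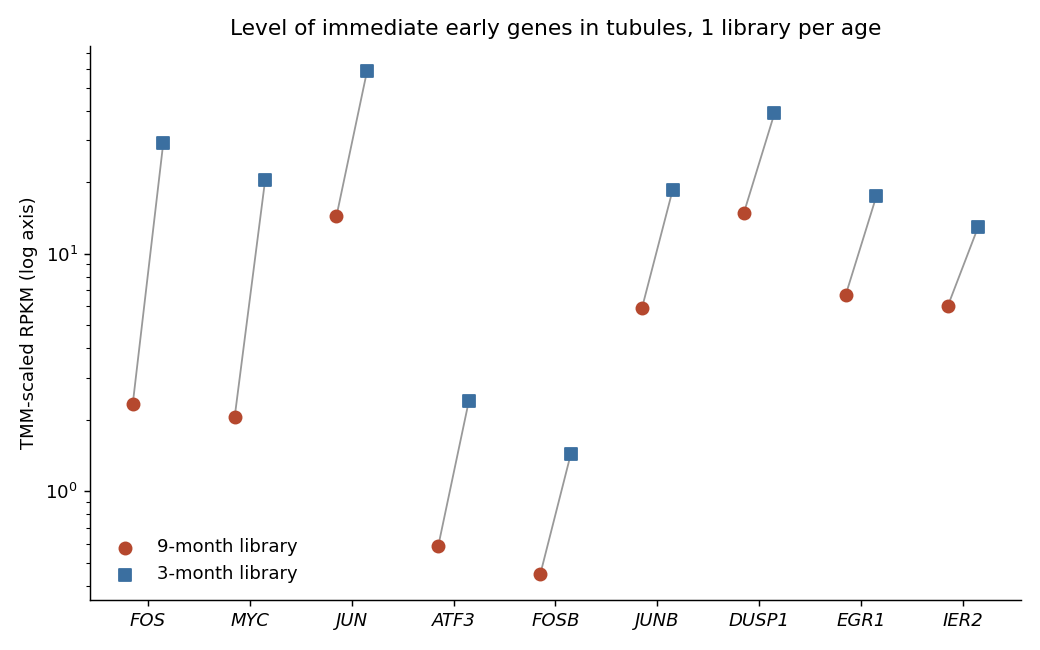
Level of each immediate early gene as TMM-scaled RPKM on a log axis, with 9-month values as circles and 3-month values as squares, 1 library per age, and genes ordered by their ratio. Every circle lies below its square, with the widest gap for FOS (2.33 and 29.3) and the narrowest for IER2 (5.99 and 13.0).

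FOS encodes the prototype partner of JUN in AP-1 and has a very short-lived transcript. It had 170 counts at 9 months and 1974 at 3 months, or 2.33 and 29.3 TMM-scaled RPKM. Its 12.6-fold lower value [10.8 to 14.8] was the widest of the 9, and 147 of the 18025 measured genes had a lower log2 ratio. In the 9-month library 26.2% of measured genes lay below FOS in level, against 81.0% in the 3-month library. FOS thus stood in the lower part of the transcriptome at 9 months and well above its middle at 3 months.

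FOSB, a paralog of FOS that is best known from neurons, was scarce in both libraries, with 50 counts at 9 months and 148 at 3 months. Its level was 0.446 TMM-scaled RPKM at 9 months and 1.43 at 3 months, a difference of 3.21-fold [2.31 to 4.51]. The ratio of FOS lay 3.92 times below that of FOSB [2.68 to 5.66], a comparison within the same libraries that no scaling can alter.

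JUN, which can pair with itself or with FOS proteins, was the most abundant of the 9 genes per length in the 3-month library. It had 977 counts at 9 months and 3676 at 3 months, or 14.4 and 58.6 TMM-scaled RPKM, and was 4.08-fold lower [3.80 to 4.38]. JUNB, a JUN protein with weaker transcriptional activity than JUN on many promoters, had 372 counts at 9 months and 1073 at 3 months. Its level was 5.92 TMM-scaled RPKM at 9 months and 18.5 at 3 months, 3.13-fold lower [2.78 to 3.53]. Of the counts of this pair, JUN took 72.4% [69.96 to 74.8] at 9 months and 77.4% [76.2 to 78.6] at 3 months, so the balance within the pair differed by few percentage points while its sum was 3.82-fold lower [3.59 to 4.06].

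The FOS family did differ in make-up. FOSL1, which encodes the FOS-related protein FRA1, had 612 counts at 9 months and 4 at 3 months, or 21.3 and 0.151 TMM-scaled RPKM. It was 141-fold higher [54.9 to 520]. FOSL2, the gene of FRA2, had 461 counts at 9 months and 854 at 3 months and was 2.01-fold lower [1.79 to 2.25], a call lost with plain library totals, reference genes, somatic markers and DESeq2 size factors. Among the counts of FOS, FOSB, FOSL1 and FOSL2, FOS took 13.1% [11.4 to 15.1] at 9 months and 66.2% [64.5 to 67.9] at 3 months. FOSL1 took 47.3% [44.6 to 50.1] at 9 months and 0.134% [0.0366 to 0.343] at 3 months. Per length, FOSL1 made up 72.3% of the family's RPKM in the 9-month library, and FOS made up 70.3% of it in the 3-month library. The 4 genes together were 2.50-fold lower [2.34 to 2.67], less than FOS alone.

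**Figure D2:**
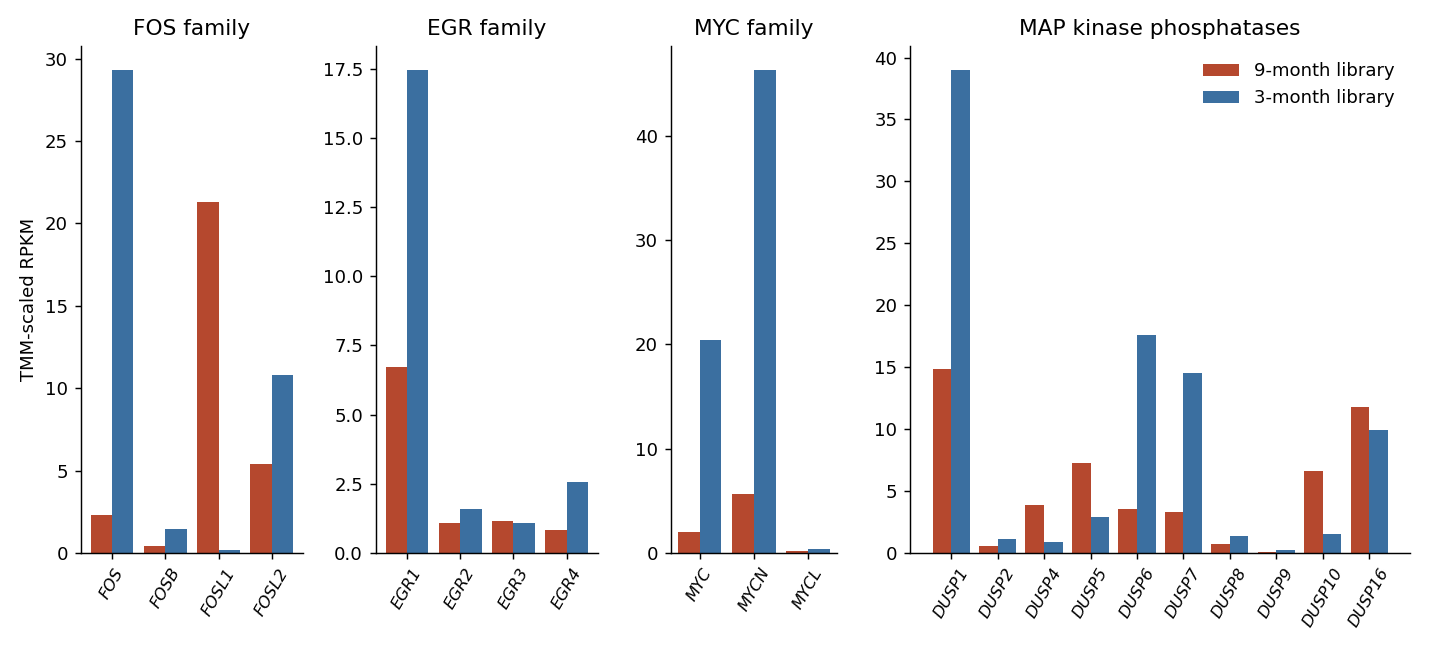
TMM-scaled RPKM of the members of 4 gene families on linear axes, each with its own scale, with the 9-month library as the left bar and the 3-month library as the right bar of each pair, 1 library per age. FOS and FOSL1 exchange places between the libraries (2.33 and 21.3 at 9 months, 29.3 and 0.151 at 3 months), while EGR1 leads its family in both.

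The other AP-1 subunits, covered by a list of 12 measured genes that includes FOSL1 and FOSL2, had 5 lower, 1 higher and 6 not called, and the median log2 ratio was -0.93, which turned to 0.36 with scaling to somatic markers. JDP2, which represses AP-1 sites, was 4.44-fold lower [3.67 to 5.41]. ATF2, a partner of JUN that is regulated mainly by phosphorylation, stood at 13.6 TMM-scaled RPKM at 9 months and 13.0 at 3 months, a ratio of 1.05 [0.948 to 1.16]. Genes known as AP-1 targets were covered by a short list. Of 9 measured, 4 were lower and 5 not called, and the median was -0.87, which turned to 0.17 with scaling to somatic markers. TIMP1 stood at 7.92 TMM-scaled RPKM at 9 months and 23.8 at 3 months. It was 3.00-fold lower [2.57 to 3.52], with the gene SYN1 annotated over it. HBEGF, a growth factor that binds the EGF receptor, was 3.25-fold lower [2.46 to 4.33], and PLAUR, the urokinase receptor, was 3.98-fold lower [2.71 to 6.01]; the annotation places another gene over PLAUR.

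ATF3 is a stress-induced factor that acts mostly as a repressor. It had 41 counts at 9 months and 154 at 3 months, or 0.590 and 2.403 TMM-scaled RPKM, and was 4.07-fold lower [2.87 to 5.89]. With FOSB it was the scarcest of the 9 genes in both libraries, and its interval was correspondingly wide. A list of 9 measured partners and stress response genes had 4 lower and 5 within 2-fold, and the median was -0.76, which turned to 0.48 with scaling to somatic markers. ATF4, which drives ATF3 in the integrated stress response, was 2.51-fold lower [2.43 to 2.59], at 103.6 TMM-scaled RPKM at 9 months and 259.8 at 3 months, a call lost under 3 scalings (reference genes, somatic markers and plain library totals). GADD45A, a growth arrest gene, was 4.56-fold lower [4.11 to 5.07], whereas ASNS, the asparagine synthetase that ATF4 induces, had a ratio of 1.43 [1.33 to 1.53].

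EGR1 encodes a zinc finger factor that, in the mouse pituitary, is needed for luteinizing hormone synthesis. It had 722 counts at 9 months and 1729 at 3 months, or 6.72 and 17.4 TMM-scaled RPKM, and was 2.60-fold lower [2.38 to 2.83]. Its relatives were scarce, and they did not all share its ratio. EGR4, with 59 counts at 9 months and 172 at 3 months, was 3.16-fold lower [2.34 to 4.32]. EGR2 had 66 counts at 9 months and 89 at 3 months, 1.46-fold lower [1.05 to 2.04] and so within 2-fold. EGR3 had 47 and 40 counts at 9 and 3 months, and its interval of 0.696 to 1.70 around a ratio of 1.08 included 1. EGR1 took 80.8% [78.0 to 83.3] of the family's counts at 9 months and 85.2% [83.6 to 86.7] at 3 months. NAB1 and NAB2, corepressors that bind EGR proteins, both lay within 2-fold, at ratios of 0.917 [0.865 to 0.972] and 0.575 [0.529 to 0.625]. The gene STAT6 is annotated over NAB2.

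MYC, whose protein pairs with MAX and promotes growth and ribosome production, was the other gene past 8-fold. It had 157 counts at 9 months and 1450 at 3 months, or 2.04 and 20.4 TMM-scaled RPKM, and was 10.01-fold lower [8.48 to 11.9]. The ratios of FOS and MYC were not separated by counting error, the ratio of MYC being 1.26 times that of FOS [0.995 to 1.59]. MYCN, a paralog of MYC, was more abundant per length than MYC in both libraries and was also lower. It stood at 5.65 TMM-scaled RPKM at 9 months and 46.3 at 3 months, 8.19-fold lower [6.86 to 9.84]. MYC took 51.3% [45.6 to 57.0] of the counts of MYC, MYCN and MYCL at 9 months and 57.4% [55.5 to 59.4] at 3 months. MAX stood at 49.1 TMM-scaled RPKM at 9 months and 48.2 at 3 months, a ratio of 1.02 [0.936 to 1.11].

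Among 10 genes of the MYC network besides MYC itself, 3 were lower, 1 higher and 6 not called, and the median was -0.26, which turned to 0.19 with plain library totals. The higher one was MXD1, an antagonist that competes with MYC for MAX, at 2.30-fold [2.01 to 2.64]. Another antagonist, MXD4, was 2.94-fold lower [2.57 to 3.37]. Of 12 genes known as MYC targets 4 were lower, 1 higher and 7 within 2-fold, and the median was -0.68, which turned to 0.65 with scaling to somatic markers. NPM1, a nucleolar protein of ribosome assembly, was 3.04-fold lower [2.92 to 3.17], and CDK4, a kinase of the G1 phase, was 2.53-fold lower [2.34 to 2.73], a call lost under the same 3 scalings as that of ATF4. LDHA, a lactate dehydrogenase chain, was 6.55-fold higher [6.09 to 7.05], and CAD, an enzyme of pyrimidine synthesis, had a ratio of 1.02 [0.970 to 1.08].

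IER2, a small nuclear protein whose function is less well known, had the narrowest difference of the 9. It had 370 counts at 9 months and 739 at 3 months, or 5.99 and 13.0 TMM-scaled RPKM. The difference of 2.16-fold [1.91 to 2.46] had an interval that reached below 2-fold.

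DUSP1 encodes a phosphatase that is induced by MAP kinase signalling and switches off p38 and JNK in turn. It had 1047 counts in the 9-month library, the most of the 9 genes there, and 2533 in the 3-month library. Its level was 14.9 TMM-scaled RPKM at 9 months and 39.0 at 3 months, 2.62-fold lower [2.44 to 2.82]. Of the other MAP kinase phosphatases 4 of 9 were lower, 3 higher and 2 within 2-fold, while 22.8% of all measured genes were lower and 28% higher. The median of these 9 phosphatases was -0.81, which turned to 0.44 with scaling to somatic markers. DUSP6 and DUSP7, which act on ERK, were 4.94-fold [4.31 to 5.68] and 4.35-fold [3.64 to 5.22] lower. DUSP10, which acts on p38 and JNK, was 4.36-fold higher [3.59 to 5.32], with 595 counts at 9 months and 126 at 3 months. DUSP4 was 4.40-fold higher [3.04 to 6.53] and DUSP5 2.52-fold higher [2.05 to 3.12], both of them nuclear phosphatases of ERK. Within the family DUSP1 took 29.7% [28.2 to 31.2] of the counts of the 10 phosphatases at 9 months and 46.5% [45.2 to 47.9] at 3 months.

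Ranked by ratio, some neighbours among the 9 genes were separated by counting error and others were not. FOS and MYC came lowest. The next gene, JUN, had a ratio 2.45 times that of MYC [2.05 to 2.96]. Between JUN, ATF3, FOSB and JUNB no neighbours were separated, although JUN and JUNB themselves were, the ratio of JUNB being 1.30 times that of JUN [1.13 to 1.499]. DUSP1 followed at 1.19 times the ratio of JUNB [1.04 to 1.37], DUSP1 and EGR1 were not separated (1.01 [0.901 to 1.13]), and IER2 lay at 1.20 times the ratio of EGR1 [1.03 to 1.40]. The genes did not form separate groups, since the wide interval of FOSB covered the ratios of DUSP1 and EGR1 and overlapped the interval of IER2. The end points, FOS and IER2, differed 5.81-fold in ratio [4.74 to 7.15].

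**Figure D3:**
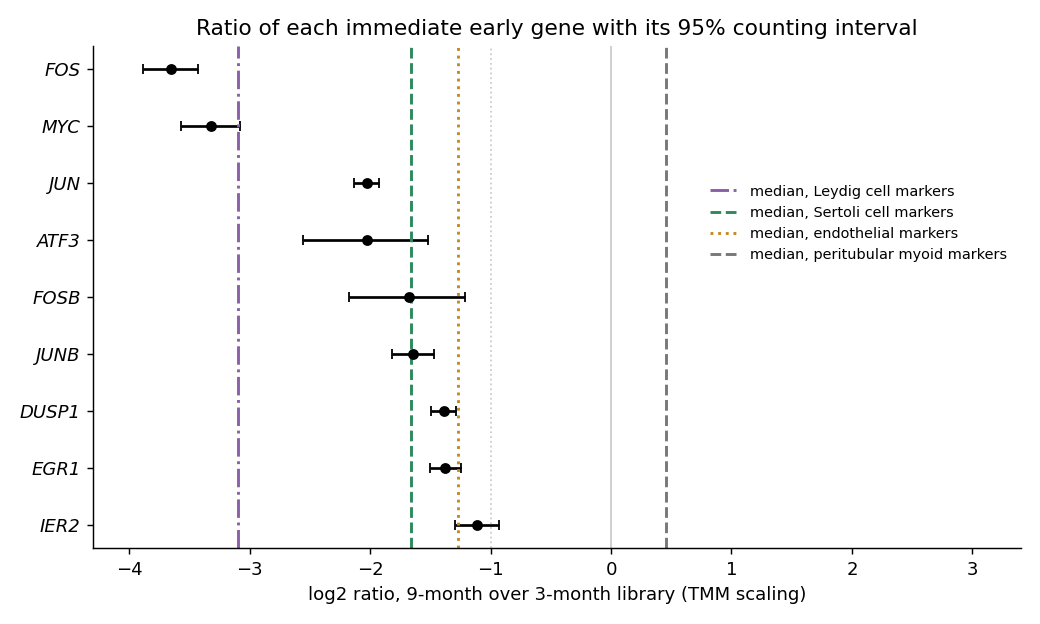
Log2 ratio of the 9-month to the 3-month library for each immediate early gene, from TMM-scaled counts with no prior count, with bars for the 95% exact counting interval and vertical lines for the median log2 ratios of 4 cell type marker lists (the faint dotted line marks 2-fold lower). FOS and MYC lie left of the median of the Leydig cell markers (-3.09), and all 9 genes lie left of the median of the peritubular myoid markers (0.45).

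The order of the levels per length also differed between the libraries. In the 9-month library DUSP1 and JUN led and were not separated by counting error, at 1.03 times [0.947 to 1.13]. EGR1, IER2 and JUNB formed the next level with no separation between neighbours, then FOS and MYC, then ATF3 and FOSB. In the 3-month library the order was JUN, DUSP1, FOS, MYC, JUNB, EGR1, IER2, ATF3 and FOSB, and every pair of neighbours was separated except JUNB and EGR1. FOS thus stood behind EGR1, IER2 and JUNB at 9 months and ahead of them at 3 months. The span between the most and the least abundant gene was 33.3-fold at 9 months and 41.0-fold at 3 months. In the 9-month library 2 of the 9 genes, JUN and DUSP1, lay above the median level of all measured genes, against 7 of 9 in the 3-month library.

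Transcripts of the signalling machinery that acts on these genes did not share their uniform direction. Transcript levels do not measure the activity of these kinases and factors, which was not tested. Over all measured genes 22.8% were called lower and 28% higher under TMM. Of 17 MAP kinases, RAF kinases and downstream kinases, 2 were lower, 2 higher and 13 within 2-fold, and the median log2 ratio was -0.23, which turned to 0.22 with plain library totals. MAPK14, which encodes p38 alpha, was 3.43-fold lower [3.19 to 3.69]. MAPK8, a gene of JNK, had a ratio of 0.733 [0.686 to 0.782]. BRAF was 7.08-fold higher [6.60 to 7.60], with the gene NDUFB2 annotated over it.

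Of 13 upstream transcription factors and coactivators 2 were lower, 2 higher and 9 within 2-fold, and the median was -0.03, which turned to 0.43 with plain library totals. SRF, which binds the serum response element of FOS and EGR1, had 952 counts at 9 months and 958 at 3 months, a ratio of 0.917 [0.837 to 1.00]. CREB1, which binds the cyclic AMP element of FOS, had a ratio of 0.983 [0.867 to 1.11], with the gene METTL21A annotated over it. The ELK partners of SRF went both ways: ELK1 was 3.57-fold lower [3.13 to 4.09] and ELK4 4.68-fold higher [3.97 to 5.54]. ELK3, with the gene CDK17 annotated over it, was 2.24-fold lower [1.95 to 2.58]. Its call was lost with plain library totals, reference genes and somatic markers. CREM, a relative of CREB1 whose activator form is abundant in spermatids, was 38.6-fold higher [32.6 to 46.0], at 113 TMM-scaled RPKM at 9 months and 2.93 at 3 months. CREM is also counted among the 10 spermatid markers below.

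A wider list of immediate early genes, of which 31 were measured and none was among the 9, had 17 lower, 3 higher and 11 within 2-fold, and the median was -1.37, with -0.04 under scaling to somatic markers. Among the lower genes the largest differences were those of ID3, an inhibitor of helix-loop-helix factors, at 13.1-fold lower [10.3 to 16.8], and HES1, a target of Notch, at 10.02-fold lower [8.34 to 12.1]. IER3, a survival gene, was 6.65-fold lower [5.20 to 8.60], and ZFP36L1, which binds AU-rich elements and speeds mRNA decay, was 6.58-fold lower [6.28 to 6.89]. The 3 higher genes were KLF4 at 6.63-fold [5.91 to 7.44], CTGF at 2.04-fold [1.83 to 2.29], a call lost with upper-quartile factors, and ARC, with 39 counts at 9 months and 3 at 3 months (a ratio of 12.0 [3.81 to 60.7]). KLF4 is a zinc finger factor that is strongly expressed in mouse spermatids and Sertoli cells.

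The NR4A receptors, orphan nuclear receptors that are induced as fast as FOS, were not called lower. NR4A1 had 655 counts at 9 months and 379 at 3 months, a ratio of 1.59 [1.40 to 1.81]. NR4A2 and NR4A3 had ratios of 1.06 [0.878 to 1.29] and 0.958 [0.538 to 1.71], with intervals that included 1, and NR4A2 shares its annotated place with GPD2. All 3 lay within 2-fold under TMM. NR4A1 was called higher with plain library totals (a log2 ratio of 1.12) and with reference genes (1.09), and all 3 were called higher with somatic markers.

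Since these transcripts are held short-lived by proteins that bind AU-rich elements, 8 measured genes of that process were set beside them. Of these 2 were lower, 1 higher and 5 within 2-fold, and the median was -0.44, which turned to 0.01 with plain library totals. ELAVL1, which encodes the stabilizing protein HuR, had a ratio of 0.957 [0.911 to 1.00], and KHSRP, which promotes decay, one of 1.46 [1.37 to 1.56]. CNOT1, the scaffold of a deadenylase complex, was 4.34-fold higher [4.24 to 4.44]. ZFP36, itself an immediate early gene that drives decay, was 4.19-fold lower [3.71 to 4.73]. Among 8 heat shock genes, another set that responds to handling and stress, 3 were lower, 1 higher and 4 within 2-fold, and the median was -0.24, which turned to 0.22 with plain library totals. HSPB1, a small heat shock protein, was 3.35-fold lower [3.22 to 3.48], and DNAJB1, a partner of HSP70, was 3.78-fold higher [3.65 to 3.91].

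The make-up of the tissue differed strongly between the libraries. In bulk tissue fewer cells of a type and less RNA per cell cannot be told apart. All 10 spermatid markers were higher, with a summed expression of 2803 CPM (counts relative to the TMM-scaled library size) at 9 months and 6.35 CPM at 3 months, where ODF1 was at 0 counts. All 10 meiotic markers were higher too, at 1223 CPM at 9 months and 64.0 CPM at 3 months, while of 8 markers of spermatogonia 4 were higher and 4 within 2-fold, at 854 CPM at 9 months and 185 CPM at 3 months. Most of that 9-month sum came from DDX4 (404 and 23.5 CPM at 9 and 3 months) and DAZL (306 and 28.7 CPM), which later germ cells express too.

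Somatic cells were covered by 41 measured markers, of which 26 were lower, 7 were higher and 8 stayed within 2-fold; their median log2 ratio was -1.33, and no marker was at 0 counts in either library. The 12 Sertoli cell markers had 8 lower and 2 higher, a median of -1.66, and summed levels of 2462 CPM at 9 months and 10222 CPM at 3 months. The 7 Leydig cell markers had 6 lower and 1 higher, a median of -3.09, and sums of 2775 and 17663 CPM at 9 and 3 months. Endothelial markers (5 of 7 lower, 1 higher, median -1.27, sums of 133 CPM at 9 months and 209 CPM at 3 months) and macrophage and leukocyte markers (5 of 9 lower, 1 higher, median -1.33, sums of 274 and 569 CPM) were close to the somatic median. Peritubular myoid markers stood apart, with 2 lower, 2 higher and 2 within 2-fold, a median of 0.45 and sums of 699 and 451 CPM. The part of these cell type differences in the values of the immediate early genes was not tested.

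Set beside these medians, 8 of the 9 genes had a log2 ratio below the median of the somatic markers, and the exception was IER2. EGR1 (-1.37) and DUSP1 (-1.39) lay close to that median (-1.33), and the counting intervals of EGR1, DUSP1 and FOSB covered it. FOS and MYC were the 2 genes below the median of the Leydig cell markers, and 4 of the 9, FOS, MYC, JUN and ATF3, lay below that of the Sertoli cell markers, with FOSB (-1.64) almost on it. The median of the 9 genes was 0.31 below the somatic median on the log2 scale.

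**Figure D4:**
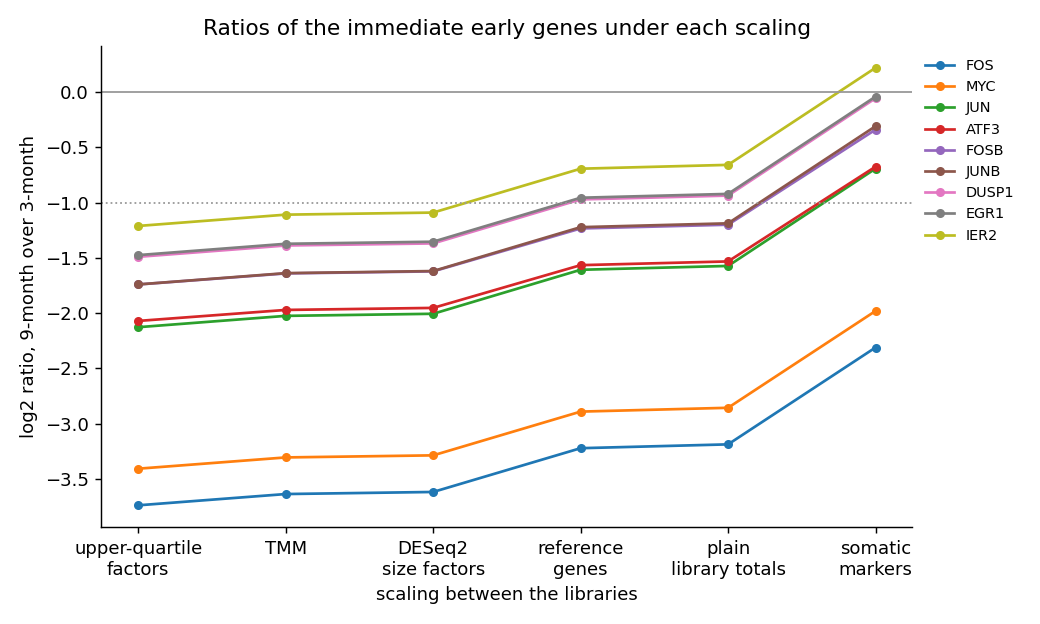
Log2 ratio of the 9-month to the 3-month library for each immediate early gene under 6 ways to scale the libraries against each other, with lines joining the values of a gene, the grey line at no difference and the dotted line at 2-fold lower. The order of the genes is the same under each scaling, and with somatic markers as the standard FOS (-2.31) and MYC (-1.98) remain far below the others while IER2 turns to 0.22.

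How far all 9 genes were lower depended on the standard, and for the 7 genes other than FOS and MYC so did the call. A change of scaling moved all log2 ratios of these libraries by nearly the same amount against the TMM values. The shift was 1.33 with somatic markers, 0.45 with plain library totals, 0.42 for scaling to reference genes, -0.10 with upper-quartile factors and 0.02 with DESeq2 size factors. With plain library totals, or with reference genes, 6 of the 9 were lower and EGR1, DUSP1 and IER2 lay within 2-fold, while 14.7% and 15.2% of all measured genes were lower. The 14 reference genes themselves had 4 lower and 10 within 2-fold under TMM, with a median of -0.42. With the somatic markers set to an unchanged median, 2 of the 9 genes were lower, FOS and MYC, against 5.48% of all measured genes. EGR1 and DUSP1 then had log2 ratios of -0.04 and -0.06. The counts of lower genes in the other lists thinned with plain library totals as well: 15 of 31 for the wider immediate early list, 2 of 12 for the other AP-1 subunits, 2 of 9 for the other phosphatases, 2 of 9 for the stress response partners, 2 of 12 for the MYC targets, 1 of 8 for the heat shock genes, 1 of 8 for the AU-rich binding genes and 1 of 13 for the upstream factors. With somatic markers 5 of the 31 genes of the wider immediate early list were lower and 10 higher, while 58.9% of all measured genes were higher. Under that scaling 1 gene was lower among the other AP-1 subunits, 1 in the MYC network and 1 among the stress response partners, and 0 in the lists of phosphatases, AP-1 targets, MYC targets, heat shock genes, AU-rich binding genes, MAP kinases and upstream factors. Of the genes named above as lower that are not among the 9 or the cell type markers, MYCN, ID3, HES1, IER3 and ZFP36L1 stayed lower with somatic markers, and the rest lay within 2-fold.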

How the data were processed

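Per the labels' protocols, total RNA was extracted with a column kit from frozen pieces of tubule. The submitters' processing notes name Trimmomatic 0.33, STAR 2.4.0 and genome build UMD3.1. Which program counted the reads, with which annotation, strand setting or molecular identifiers, is not given in the sources used here, so reads of overlapping genes may be mixed. The deposited tables have no header, and units were worked out from the values. The authors deposited raw counts per gene, a gene length in bases (a further column that is the same in both tables), and RPKM, which equals the count divided by that length and by the table's own total to within 0.000496%.

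Counts were scaled by TMM factors from edgeR 4.0.16 in R 4.3.3, over genes with at least 10 counts (1.17 for the 9-month and 0.855 for the 3-month library). Log2 ratios carry a prior count of 2. With 1 library per age there is no test and no p-value. Intervals of ratios are conditional binomial (Clopper-Pearson), those of shares exact binomial, and ratios of ratios carry the exact conditional interval of an odds ratio. They cover counting error only, and may be too narrow since PCR copies of a molecule may be counted more than once. Alternatives were plain totals, DESeq2 1.42.0 size factors, upper-quartile factors, reference genes, somatic markers, minimum counts of 1 and 50, prior counts of 0.5 and 10, and calls at 1.5-fold and 4-fold. Python 3.11.15 with scipy 1.17.1 was used.

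The members and the 21 other lists were chosen with earlier results of these data known. All members are named, as are relatives of a member. From each other list genes were named from up to 6 with the largest log2 ratios at 5 CPM or more, taking up to 3 in each direction first. IER3, ZFP36, ARC, MAPK8, CREB1, ELAVL1, PLAUR and CAD fall outside that rule and were named after their values were seen, and some list genes are not reported here by name. Of symbols with more than 1 row, the row with most counts was used. Overlapping genes were looked up by symbol in the RefSeq annotation of assembly ARS-UCD2.0, for names only.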

Additional observations from a re-analysis of the deposited data

How the results depend on the processing

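Of 81 values of single genes under the other settings, 57 stayed within the counting interval of the value reported, 23 moved outside it and 1 changed sign. That one was IER2, at 0.22 with scaling to somatic markers. The 57 include all values under the other minimum counts, which were identical to the values reported. A minimum only drops genes and all 9 passed, so those values could not move and say nothing about robustness. The median log2 ratio of the 9 genes was -1.20 with plain library totals and -0.34 with somatic markers. The number called lower was 2 with somatic markers and 4 when a 4-fold difference was asked for, and stayed between 6 and 9 under the other scalings, minimum counts and a 1.5-fold limit. The minimum counts could not change this number, and the 1.5-fold limit could not reduce it. The share of all measured genes called lower was 14.7% with plain library totals, 15.2% with reference genes, 5.48% with somatic markers and 8.59% at 4-fold. These differences follow from the construction of each standard. Taken per length instead of per count, the share of JUN in its pair in the 3-month library was 76.0%, and that of FOS in its family was 7.90% at 9 months and 70.3% at 3 months. No paired analysis was possible because each age has 1 library, and for the same reason no library could be left out. Precision was lowest for ATF3 and FOSB, the genes with fewest counts. With 1 library per age, differences between animals, pieces of tissue or handling cannot be told apart from age.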
